A study of Mus musculus with 31 samples.

Results

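Of the series' 31 arrays, 10 are described here: the 5 thymic tumors with the highest and the 5 with the lowest combined signal of Cd4 and Cd8a. These genes encode the CD4 and CD8α coreceptors of T cells. The series holds 19 tumors that arose in the thymus of C57BL/6 mice given 100 mg/kg of the alkylating mutagen N-ethyl-N-nitrosourea (ENU) and 12 untreated thymi, with RNA measured on Affymetrix whole-genome mouse arrays that read the 3′ ends of transcripts. The mice were labelled NDR1+/+ (WT), NDR1+/- (HT) or NDR1-/- (KO), where NDR1 is the kinase encoded by Stk38, and all tumor mice had received ENU. Tumors were taken when they had developed or at the end of the observation time; the sources used here do not give the age of each mouse. Whether each array came from a separate mouse is not stated either, so p-values measure the spread between these arrays.

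To choose the 10 tumors, 4 of the 19 (KO_04, KO_06, HT_01 and HT_03) were left out and the other 15 were chosen by their measured coreceptor RNA, ranked by the mean log2(intensity + 1) of Cd4 and Cd8a. All levels below are on this log2 scale, and every difference is high minus low tumors. The 5 high tumors were 3 WT (WT_01, WT_02, WT_04), 1 HT (HT_07) and 1 KO (KO_05), all female. The 5 low tumors were 2 WT (WT_03, WT_05), 1 HT (HT_06) and 2 KO (KO_02, KO_07), and KO_02 was the 1 male. The median array signal was 4.39, and the lowest value of any gene was 2.34, so a level of 4 to 5 is dim and no marker is at 0. The 4 tumors left out had B and plasma cell marker means of 10.62 to 11.50, against 5.80 to 8.20 in the high tumors and 5.57 to 7.09 in the low tumors.

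In the thymus, T cell precursors pass from a stage without CD4 and CD8 through a stage with both coreceptors to mature cells with 1 of them. CD8 is a dimer of CD8α with CD8β, which is encoded by Cd8b1, or of CD8α with itself. Thymic lymphomas of mice can resemble any of these stages. The sample titles read Thymocytes for the thymi and Tumorcells for the tumors. In RNA pooled over many cells, fewer cells with a coreceptor cannot be told apart from less coreceptor RNA in each cell.

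The opposite strands of a short stretch of chromosome 6 hold 1 transcript start of Tmem176a and 1 of Tmem176b. These genes encode related membrane proteins with a set of transmembrane segments. They are shown because Tmem176a was the 1 gene past the threshold between the groups and its neighbor was also without overlap. RefSeq windows of 250 bases before to 50 after a transcript start (GRCm38.p6) are printed 5′ to 3′ on the gene's own strand. For each gene 1 window is printed, of 2 for Tmem176a and 3 for Tmem176b. The printed windows lie at chr6:48841406-48841705 on the plus strand for Tmem176a and at chr6:48841325-48841624 on the minus strand for Tmem176b. Capitals mark the 219 bases that both windows share, chr6:48841406-48841624, which the second line reads from the other strand.
Tmem176a: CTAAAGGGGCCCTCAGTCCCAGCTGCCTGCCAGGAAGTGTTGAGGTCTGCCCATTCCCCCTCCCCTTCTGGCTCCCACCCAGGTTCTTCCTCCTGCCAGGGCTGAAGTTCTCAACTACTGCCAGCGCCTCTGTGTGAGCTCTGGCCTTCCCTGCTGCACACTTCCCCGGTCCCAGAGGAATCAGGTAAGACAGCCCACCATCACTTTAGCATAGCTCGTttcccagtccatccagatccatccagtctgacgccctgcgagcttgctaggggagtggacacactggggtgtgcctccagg
Tmem176b: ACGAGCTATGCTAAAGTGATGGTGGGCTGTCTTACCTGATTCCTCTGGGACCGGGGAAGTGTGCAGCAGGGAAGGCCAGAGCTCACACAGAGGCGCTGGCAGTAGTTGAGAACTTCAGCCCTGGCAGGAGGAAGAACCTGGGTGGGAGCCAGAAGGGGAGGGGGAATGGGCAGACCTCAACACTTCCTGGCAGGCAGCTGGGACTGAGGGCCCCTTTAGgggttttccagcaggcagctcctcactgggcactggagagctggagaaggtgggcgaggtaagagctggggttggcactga

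Cd4 and Cd8a chose the groups, so their levels are a description with no test. In the high tumors, Cd4 was 9.16 in HT_07, 9.20 in WT_01, 9.59 in KO_05, 9.64 in WT_02 and 8.76 in WT_04. In the low tumors it was 9.67 in HT_06, 7.01 in WT_05, 6.40 in KO_07, 6.47 in KO_02 and 7.22 in WT_03. HT_06 had more Cd4 than any high tumor, so the groups overlapped. Cd8a in the high tumors was 13.36 in HT_07, 12.81 in WT_01, 12.15 in KO_05, 12.08 in WT_02 and 12.53 in WT_04. In the low tumors it was 9.98 in HT_06, 11.49 in WT_05, 12.08 in KO_07, 11.96 in KO_02 and 9.39 in WT_03. HT_06 was thus low through Cd8a, WT_05, KO_07 and KO_02 mainly through Cd4, and WT_03 through both.

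The mean of the 2 genes was 10.93 ± 0.224 (SD, n = 5) in the high and 9.17 ± 0.545 (n = 5) in the low tumors. The lowest high tumor, WT_04, had 10.65, and HT_02, just outside the group, had 10.58. The highest low tumor, HT_06, had 9.82, and HT_04, just outside that group, had 10.06. All tumors were below the 12 thymi, which had 12.87 to 13.18, so a high tumor is high only among tumors. Another Cd4 probe set ranged from 4.28 to 9.11 in the high tumors and from 4.23 to 8.95 in the low tumors. In every other Cd8a probe set the groups overlapped, for example with 9.46 to 12.29 in the high and 8.83 to 11.38 in the low tumors. The groups thus rest on the probe set of each gene with the highest mean.

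**Figure D1:**
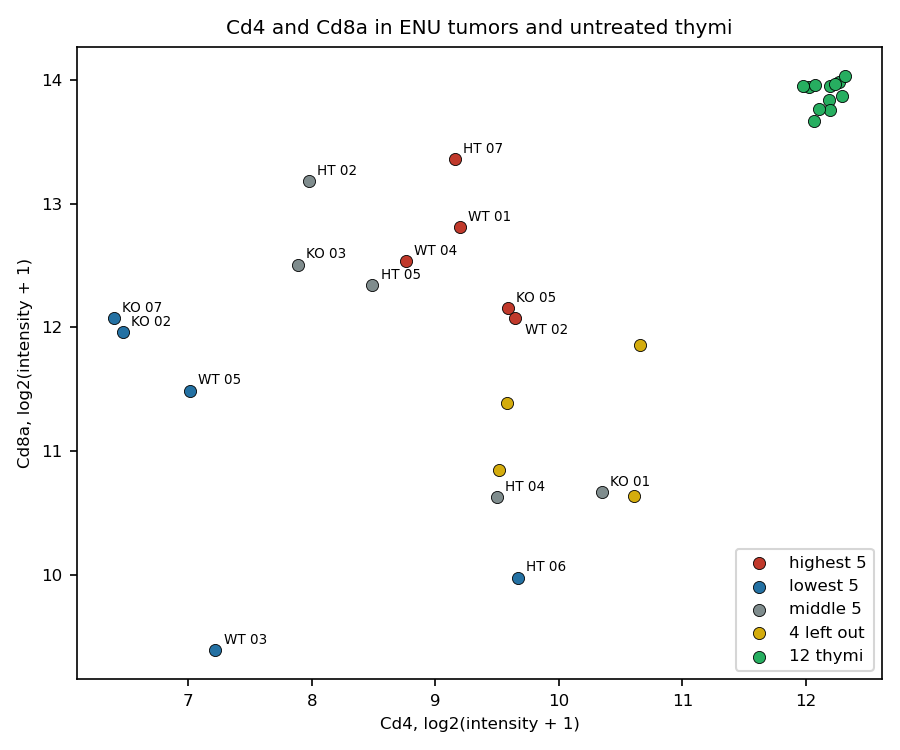
Cd4 (x axis) and Cd8a (y axis) as log2(intensity + 1), 1 point an array. The high tumors lie between 8.76 and 9.64 for Cd4, the low tumors lie apart on either or both axes, and the 12 thymi lie above all tumors.

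The tumors were no more alike within the high group than between groups. Over all genes tested, the mean Pearson correlation was 0.924 among the 10 pairs of high tumors, 0.941 among the 10 pairs of low tumors and 0.931 among the 25 pairs of a high with a low tumor. The pairs share arrays, so no p is given. Of the high tumors, 4 of 5 were most like a low tumor, for example WT_01 with KO_02 (0.973) and KO_05 with HT_06 (0.967). Only WT_02 was most like another high tumor, WT_04 (0.945). Of the low tumors, HT_06, WT_05 and WT_03 were most like another low tumor, and KO_07 and KO_02 most like a high tumor. The median SD over genes was 0.539 in the high tumors, 0.446 in the low tumors and 0.193 in the thymi.

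Few genes differed between the groups beyond the spread of the tumors. Tmem176a was the 1 gene past the threshold, and it was lower in the high tumors. In limma with sex in the fit, 1 of 13643 genes (0.00733%) passed an adjusted p under 0.05, with 0 higher. At an unadjusted p under 0.05 there were 606 genes (4.44%), 293 higher (2.15%) and 313 lower (2.29%). The 2 groups did not overlap for 47 genes higher (0.344%) and 44 lower (0.323%). The median difference over all genes was 0.03, while 53.3% of differences were positive, and the median standard error was 0.342. Because KO_02 alone fits the sex term, the fitted difference is that of 5 high against 4 female low tumors. The plain difference over all 10 tumors is added for named genes where it departs from the fitted one by 0.4 or more, or has the other sign.

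**Figure D2:**
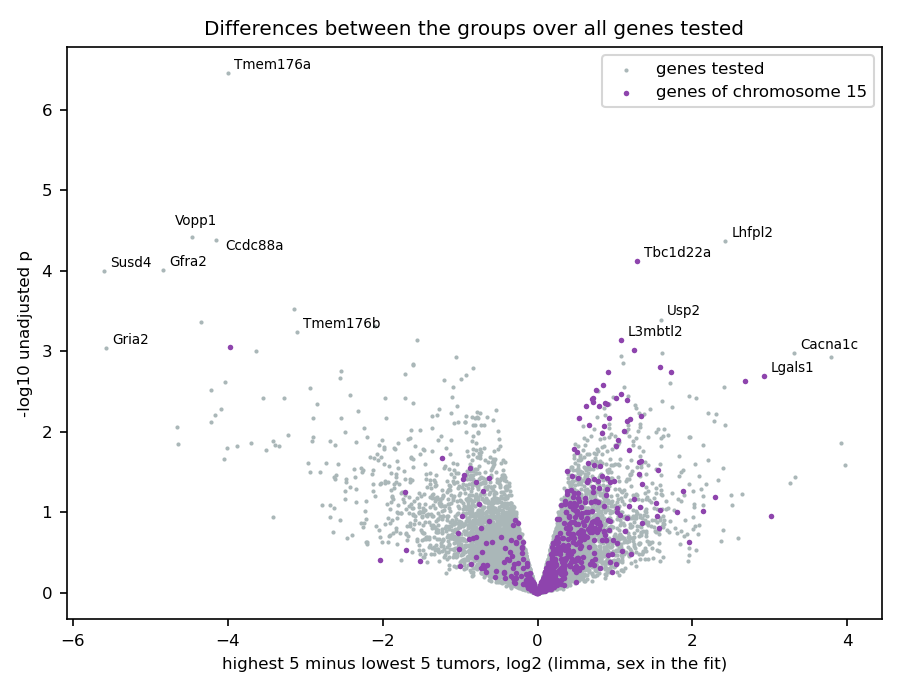
Difference between the high and low tumors (x axis, log2) against -log10 of the unadjusted p (y axis) for 13643 genes, with genes of chromosome 15 in purple. Tmem176a stands apart at -4.0, and the purple points lie mostly right of 0.

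Tmem176a was 5.25 in HT_07, 5.56 in WT_01, 5.48 in KO_05, 4.75 in WT_02 and 6.38 in WT_04 of the high tumors. It was 9.33 in HT_06, 9.30 in WT_05, 9.63 in KO_07, 8.65 in KO_02 and 9.69 in WT_03 of the low tumors. The groups lay more than 2 log2 units apart, with means of 5.49 ± 0.595 and 9.32 ± 0.413 (SD, n = 5 each). The difference was -4.0 (SE 0.308, limma adjusted p = 0.0048), and -3.84 over the 5 and 5 tumors. The 5 tumors between the groups had 6.10 to 8.64, the 4 left out 8.40 to 9.44, and the thymi 5.51 to 7.14. The high tumors therefore lay near the thymi, and the low tumors near the 4 left-out tumors. Other Tmem176a probe sets differed by -3.17 and -1.85, and in both the groups overlapped. Their high tumors reached 7.24 and 5.59, and their low tumors began at 6.67 and 5.43. The adjusted p was 0.108 with genotype in the fit, 0.221 for the score as a continuous measure over 15 tumors, 0.268 for the mean of all probe sets, and 1.0 for the 5 highest against the 5 lowest of all 19 tumors.

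Its neighbor Tmem176b, chosen after its values were seen, was 7.79 in HT_07, 7.80 in WT_01, 8.29 in KO_05, 5.56 in WT_02 and 6.03 in WT_04 of the high tumors. In the low tumors it was 10.39 in HT_06, 9.60 in WT_05, 9.89 in KO_07, 10 in KO_02 and 10.94 in WT_03. No high tumor reached a low one, and the difference was -3.11 (SE 0.602, limma adjusted p = 0.654), so it did not pass. The genes overlap on chromosome 6, Tmem176b at 48833811 to 48845948 and Tmem176a at 48841483 to 48845364 of GRCm38.p6. Macrophage and dendritic cell markers, listed because the 2 genes are known from such cells as well as from T cells, had means of 6.56 to 7.75 in the high and 6.41 to 8.04 in the low tumors. Of 17 such markers tested, 8 were positive and 0 passed an unadjusted p under 0.05, where 4.44% of all genes did. Those of smallest p were Mrc1, a mannose receptor, with 4.84 to 8.12 in the high and 6.73 to 8.91 in the low tumors (-1.71, limma adjusted p = 0.98), and C1qa, a complement subunit, with 6.30 to 9.96 in the high and 7.80 to 11.02 in the low tumors (-1.74, limma adjusted p = 0.98). The part of such cells in the difference of Tmem176a was not tested.

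**Figure D3:**
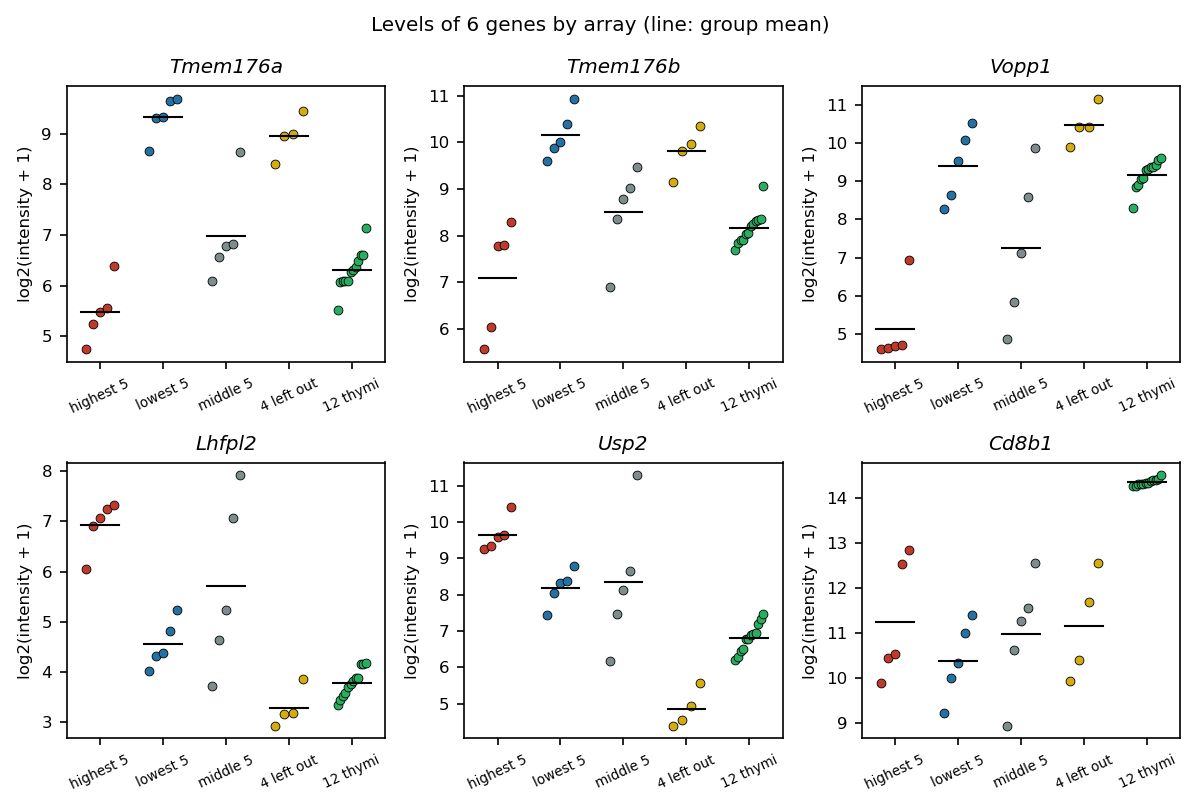
Levels of 6 genes (y axes, log2(intensity + 1)) by array, with group means as lines, for the high, low, middle and left-out tumors and the thymi. Tmem176a and Tmem176b are lower in every high than in every low tumor, and Cd8b1 overlaps.

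No gene passed in the other direction, and those of smallest p are given as values. Lhfpl2, a gene of the lipoma HMGIC fusion partner-like family, was 6.91 in HT_07, 7.31 in WT_01, 7.07 in KO_05, 6.05 in WT_02 and 7.24 in WT_04 of the high tumors. In the low tumors it was 4.39 in HT_06, 4.02 in WT_05, 5.24 in KO_07, 4.82 in KO_02 and 4.31 in WT_03. These groups did not overlap, and the difference was 2.43 (SE 0.332, limma adjusted p = 0.147). The 3 other Lhfpl2 probe sets were dim, with differences of 0.55, 0.21 and 0.38. Usp2, a ubiquitin-specific protease, did not overlap either, with 9.25 to 10.40 in the high and 7.45 to 8.79 in the low tumors (difference 1.59, limma adjusted p = 0.594). Its other probe set did overlap, with 8.12 to 10.32 in the high and 6.60 to 9.97 in the low tumors.

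Another 3 genes of smallest p lie on chromosome 15. Tbc1d22a, a protein with a Rab GTPase-activating domain, had 8.80 to 9.39 in the high and 7.6 to 8.98 in the low tumors (1.29, limma adjusted p = 0.196). L3mbtl2, a Polycomb group protein, had 8.86 to 9.61 in the high and 7.99 to 9.74 in the low tumors (1.08, limma adjusted p = 0.702). Tspo, a mitochondrial outer membrane protein, had 10.61 to 11.19 in the high and 9.03 to 11.35 in the low tumors (1.24, limma adjusted p = 0.702). Other Tspo probe sets differed by -0.03 and 0.78. For each of these 3 genes the highest low tumor was KO_02.

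Several genes of large but unequal difference were looked at after their values were seen. Vopp1 was 4.70 in HT_07, 4.73 in WT_01, 6.94 in KO_05, 4.65 in WT_02 and 4.61 in WT_04 of the high tumors. It was 10.07 in HT_06, 9.52 in WT_05, 8.27 in KO_07, 8.64 in KO_02 and 10.51 in WT_03 of the low tumors. These groups did not overlap (-4.47, limma adjusted p = 0.147), and the 12 thymi had 8.30 to 9.59, in the range of the low tumors. Another Vopp1 probe set overlapped, with 3.80 to 5.25 in the high and 4.99 to 9.51 in the low tumors. Ccdc88a, an actin-binding protein also called girdin, had 3.91 to 4.35 in the high and 4.26 to 10.05 in the low tumors, of which KO_02 was lowest (-4.15, limma adjusted p = 0.147; -3.34 over all 10 tumors). Gfra2, a coreceptor of the GDNF family (-4.84, limma adjusted p = 0.196), Susd4, a regulator of complement (-5.60, limma adjusted p = 0.196), and Gria2, an AMPA receptor subunit (-5.57, limma adjusted p = 0.702), were also lowest in KO_02 among the low tumors. With KO_02 counted in, the differences were -3.90, -4.36 and -4.63. Cacna1c, a calcium channel subunit, had 8.60 to 11.05 in the high and 4.31 to 7.88 in the low tumors (3.31, limma adjusted p = 0.702; 3.81 over all 10 tumors), against 3.63 to 3.99 in the thymi.

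The T cell genes that were followed by name did not separate the groups. Cd8b1, the partner of Cd8a, was 10.53 in HT_07, 12.54 in WT_01, 12.83 in KO_05, 9.90 in WT_02 and 10.44 in WT_04 of the high tumors. It was 11 in HT_06, 10.33 in WT_05, 9.23 in KO_07, 11.40 in KO_02 and 10 in WT_03 of the low tumors. The groups overlapped (1.11, SE 0.674, limma adjusted p = 0.98), and the thymi had 14.25 to 14.50. Rag1, which cuts DNA to assemble antigen receptor genes, had 11.38 to 13.94 in the high and 10.64 to 14.31 in the low tumors (-0.65, limma adjusted p = 0.98; -0.07 over all 10 tumors). Il2ra, the interleukin-2 receptor α chain of early thymocytes, had 4.13 to 11.60 in the high and 4.40 to 12.19 in the low tumors (-0.34, limma adjusted p = 0.994; 0.46 over all 10 tumors). Lyl1, a transcription factor of T cell leukemia, had 6.19 to 11 in the high and 4.97 to 9.48 in the low tumors (-0.43, limma adjusted p = 0.986; 0.26 over all 10 tumors). Stk38, the mutated gene, had 9.52 to 12.77 in the high and 8.73 to 13.04 in the low tumors (0.07, limma adjusted p = 0.996; 0.65 over all 10 tumors). Stk38 was 11.47 in the tumor labelled KO_07, above the 11.42 of WT_01, so this probe set did not follow the genotype label in every tumor.

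Of the 30 gene lists, none had a member past the adjusted threshold, where 0.00733% of all genes passed. Of 14 genes that regulate the coreceptors and the choice between the CD4 and CD8 lineages, 4 differences were positive, with a median of -0.16 against 0.03 over all genes. Patz1, a zinc-finger protein that regulates Cd8 genes, had 10.24 to 10.89 in the high and 10.51 to 11.64 in the low tumors (-0.78, limma adjusted p = 0.866). Of 21 genes typical of thymocytes with both coreceptors, 8 were positive (median -0.20). Dntt, the DNA polymerase that adds bases at antigen receptor junctions, had 12.01 to 13.05 in the high and 12.54 to 13.57 in the low tumors (-0.74). Of 10 genes of the CD3 complex and pre-T cell receptor, 2 were positive (median -0.42). Ptcra, the pre-T cell receptor α chain, ranged from 8.54 to 12.03 in the high and from 9.22 to 12.55 in the low tumors (-1.70, limma adjusted p = 0.98; -1.23 over all 10 tumors). Cd3g, a CD3 subunit, had 11.88 to 13.21 in the high and 12.82 to 13.67 in the low tumors (-0.74). List means of this group were 10.13 to 11.44 in the high, 11.11 to 11.50 in the low tumors and 12.26 to 12.44 in the thymi, so all 10 tumors carried T cell transcripts.

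Other T cell lists had median differences of -0.30 to 0.44, against 0.03 over all genes. Of 17 genes of proximal T cell receptor signalling, 5 were positive (median -0.08). Of 19 T lineage transcription factors, 5 were positive (median -0.30). Id2, an inhibitor of E proteins, did not overlap, with 10.83 to 11.85 in the high and 11.90 to 12.91 in the low tumors (-1.04, limma adjusted p = 0.866), whereas Nfil3 was 7.59 to 8.58 in the high and 5.31 to 8.28 in the low tumors (1.53, limma adjusted p = 0.935). Other Id2 probe sets overlapped, for example with 6.70 to 10.67 in the high and 10.05 to 11.79 in the low tumors. Of 18 genes of mature T cells, 13 were positive (median 0.44). Il7r, the interleukin-7 receptor, had 6.76 to 10.90 in the high and 4.46 to 8.61 in the low tumors (2.30, limma adjusted p = 0.98). Of 18 Notch pathway genes, 10 were positive (median 0.02), and Notch1 was 13.17 to 14.13 in the high and 13.50 to 14.25 in the low tumors, against 10.83 to 11.66 in the thymi.

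The lists of leukemia, growth and stress genes had no member past the adjusted threshold either. Of 11 genes of the LYL1, TAL and LMO leukemia group, 8 were positive (median 0.29). Mycn, a MYC family factor, was 3.57 to 4.19 in the high and 4.23 to 9.54 in the low tumors, without overlap (-2.62, limma adjusted p = 0.98; -2.16 over all 10 tumors). Other Mycn probe sets were dim and differed by -0.07 and 0.04. Of 22 MYC target and ribosome biogenesis genes, 17 were positive (median 0.22), and 2 were higher at unadjusted p under 0.05, where 2.15% of all genes did. These were Bop1 (0.70, limma adjusted p = 0.857) and Polr1b (0.76, limma adjusted p = 0.98), both needed to make ribosomes. For both genes the groups overlapped. Bop1 lies on chromosome 15, and its highest low tumor was KO_02 with 10.26, against 10.13 to 10.55 in the high tumors. Of 18 heat shock and early response genes, 10 were positive (median 0.02), and 3 were lower at unadjusted p, where 2.29% of all genes were. Jun, an AP-1 subunit, was 3.91 to 7.53 in the high and 5.08 to 9.90 in the low tumors (-3.28, limma adjusted p = 0.857; -2.55 over all 10 tumors). Early response genes can change while samples are handled, and the sources used here do not say how each tumor was handled. Of 19 mitosis genes, 11 were positive (median 0.01), and of 20 DNA replication genes, 13 (median 0.06). Of 18 genes of the amino acid stress response, 14 were positive (median 0.41), and Asns, asparagine synthetase, had 8.78 to 11.47 in the high and 6.49 to 10.57 in the low tumors (2.14, limma adjusted p = 0.98; 1.62 over all 10 tumors).

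Among markers of other cells, most differences were below 0 for endothelium, fibroblasts and thymic epithelium. Of 6 endothelial markers tested, 0 were positive and 4 were lower at unadjusted p under 0.05, where 2.29% of all genes were, with a median of -0.77. Their mean was 4.33 to 5.12 in the high and 5.01 to 5.93 in the low tumors, near the array median, and their summed intensity was 141 to 806 in the high and 388 to 1073 in the low tumors. Eng, an endothelial receptor, had 4.90 to 7.31 in the high and 5.97 to 8.11 in the low tumors (-1.31, limma adjusted p = 0.98). Fibroblast and pericyte markers were positive for 6 of 17 (median -0.63), and 2 were lower at unadjusted p. Rgs5, a pericyte marker, was 3.58 to 4.09 in the high tumors, against 8.66 in WT_05, 9.63 in WT_03 and 3.84 to 4.94 in the other low tumors. Of 15 thymic epithelial markers, 1 was positive and 2 were lower at unadjusted p (median -0.19), with list means of 4.76 to 5.36 in the high and 5.22 to 5.91 in the low tumors, against 5.64 to 8.40 in the thymi. How far such cells contribute to the differences in other genes was not tested.

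In each other list, at most 1 gene in either direction was past an unadjusted p of 0.05, where 2.15% of all genes were higher and 2.29% lower. Of 17 genes of the stage before the coreceptors, 10 were positive (median 0.33). Cd93, a surface protein of early progenitors, had 5.12 to 10.60 in the high and 9.42 to 12.44 in the low tumors (-2.81, limma adjusted p = 0.98). Of 19 genes of natural killer, γδ and cytotoxic T cells, 13 were positive (median 0.32), and Sox13, a γδ T cell factor, had 5.85 to 8.94 in the high and 8.71 to 10.15 in the low tumors (-1.81, limma adjusted p = 0.98). Of 12 genes of regulatory and activated T cells, 5 were positive (median -0.18).

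Interferon-stimulated genes were positive for 4 of 19 (median -0.44), with list means of 6.77 to 7.79 in the high and 7.14 to 8.28 in the low tumors, against 8.30 to 8.96 in the thymi. Xaf1, an interferon-induced regulator of cell death, had 6.97 to 8.38 in the high and 8.21 to 9.13 in the low tumors (-0.86, limma adjusted p = 0.98). Antigen presentation genes were positive for 5 of 13 (median -0.16), p53 target genes for 6 of 13 (-0.04) and BCL2 family genes for 8 of 12 (0.22). Glycolysis genes were positive for 8 of 16 (median 0.04) and the NDR, MST and MOB kinase genes, the relatives and partners of NDR1, for 7 of 18 (-0.29). Among cell type markers, B and plasma cell genes were positive for 11 of 14 (median 0.60), neutrophil genes for 8 of 9 (0.22), macrophage and dendritic cell genes for 8 of 17 (-0.13), erythroid and platelet genes for 4 of 7 (0.01) and adipocyte genes for 1 of 3 (-0.12). Cd79a, a part of the B cell receptor, had 5.48 to 8.60 in the high and 4.39 to 6.81 in the low tumors (1.51, limma adjusted p = 0.98). Xbp1, of smallest p among the B and plasma cell genes, went the other way. It had 11.15 to 11.64 in the high and 11.62 to 12.09 in the low tumors (-0.40, limma adjusted p = 0.98).

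**Figure D4:**
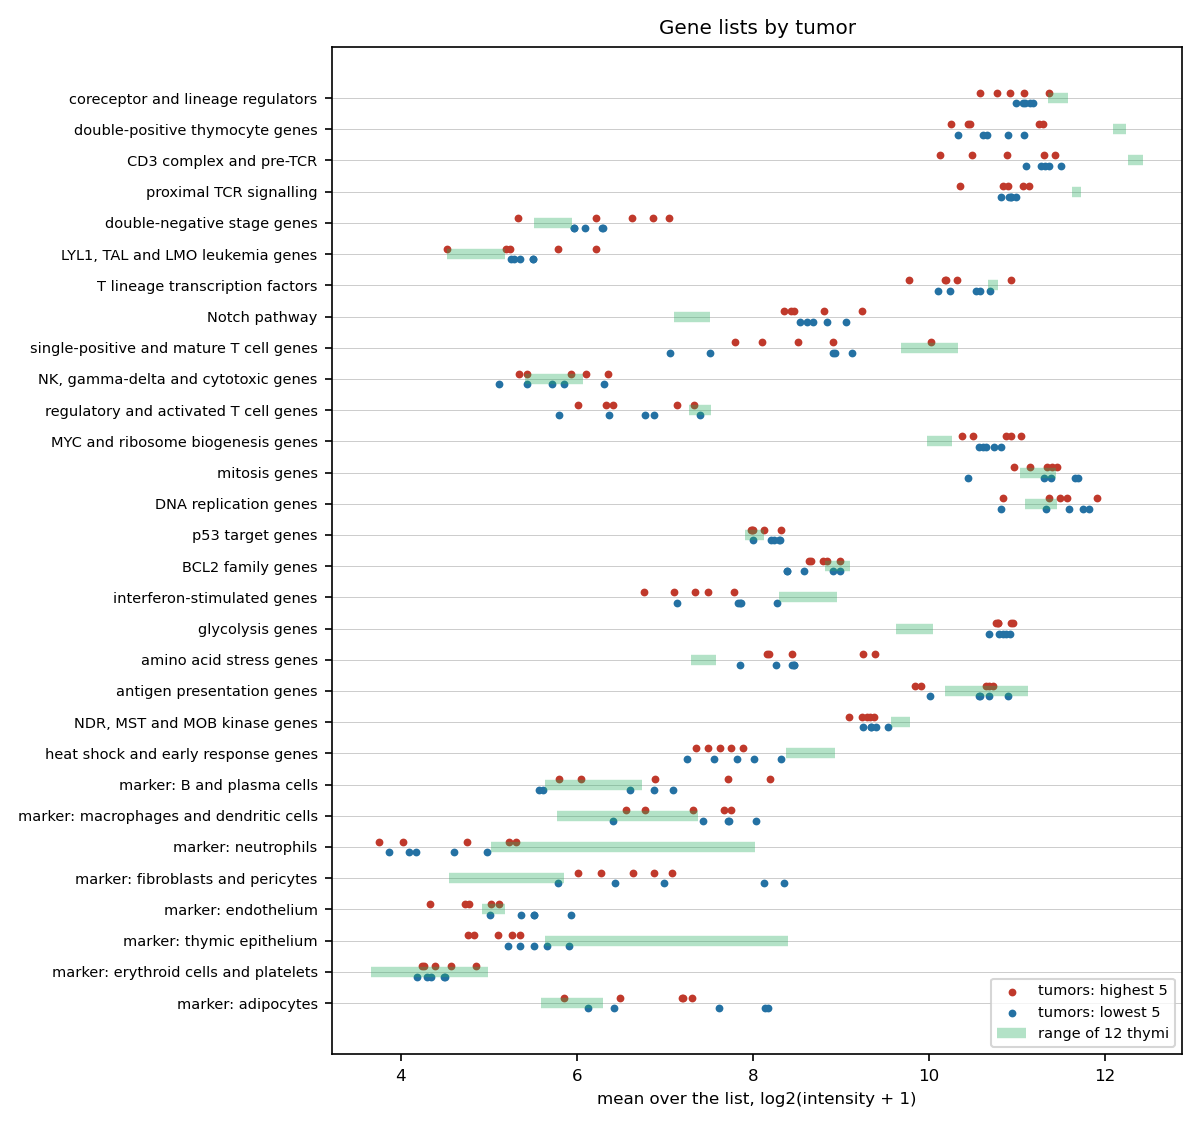
Mean level of each gene list (x axis, log2(intensity + 1)) in the 5 high (red) and 5 low tumors (blue), 1 point a tumor, with the range of the 12 thymi as a green bar. The 2 colors overlap for every list drawn.

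Genes of chromosome 15 were set apart after the gene values were seen, and their shift relative to other chromosomes was 0.47 or more in all 5 high tumors and, among the low tumors, in KO_02. For genes with a thymus mean above 8, the shift is the median change from the thymus mean on a chromosome less the median over all genes. The chromosome 15 shift, over 250 genes, was 0.50 in HT_07, 0.56 in WT_01, 0.47 in KO_05, 0.60 in WT_02 and 0.71 in WT_04 of the high tumors. In the low tumors it was -0.01 in HT_06, 0.26 in WT_05, 0.13 in KO_07, 0.82 in KO_02 and 0.03 in WT_03. The groups overlapped because KO_02 had the largest value of all, and the thymi had -0.03 to 0.02. The difference of 0.33 gave an exact permutation p of 0.0794, which was 0.529 after adjustment over 20 chromosomes. It was 0.47 without KO_02, for which no p is given because KO_02 was set aside after its value was seen. It was 0.12 over all genes tested and 0.19 for the 5 highest against the 5 lowest of all 19 tumors. Chromosome 15 did not have the smallest p. Chromosome 1 (-0.08, exact permutation p = 0.0635) and chromosome 16 (-0.08, exact permutation p = 0.0714) had smaller ones, each 0.529 after adjustment.

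The shift was not shared by all tumors between the groups. It was 0.56 in HT_05 and 0.50 in KO_03, but 0.24 in HT_02, 0.06 in KO_01 and 0.02 in HT_04. The 4 left-out tumors had 0.05 to 0.14. The genes behind the shift were also split along the chromosome into 3 parts of 84, 83 and 83 genes. In these parts WT_01 had 0.50, 0.59 and 0.60, KO_05 0.56, 0.45 and 0.39, and HT_07 0.30, 0.51 and 0.67. WT_02 had 0.20, 0.91 and 0.70, and WT_04 had 0.22, 0.83 and 0.87. Of the low tumors, WT_05 had -0.02, 0.40 and 0.39, KO_07 -0.29, 0.36 and 0.36, and KO_02 0.85, 0.85 and 0.77. HT_06 and WT_03 had -0.03 to 0.09 in all parts. A smaller value in the first part was thus seen in both groups. The 3′ over 5′ signal of control transcripts (log2 ratio) is a sign of RNA degradation. It was 4.87 in HT_07, 0.97 in WT_01, 0.18 in KO_05, 1.52 in WT_02 and 2.01 in WT_04 of the high tumors. In the low tumors it was 0.19 in HT_06, 0.98 in WT_05, 3.17 in KO_07, 0.75 in KO_02 and 0.25 in WT_03. Between the groups, HT_05 had 2.06, KO_03 1.91 and the others 0.35 to 0.73. The thymi had 0.261 to 0.499. The ratio averaged 1.91 in the high and 1.07 in the low tumors (exact permutation p = 0.444; the smallest possible is 0.00794). Chromosome 15 was not the only one to shift. Chromosome X was -0.48 to -0.05 in the high and -0.30 to 0.03 in the low tumors, against -0.09 to 0.07 in the thymi. Chromosome 17 was -0.03 to 0.32 in the high and -0.02 to 0.23 in the low tumors, against -0.04 to 0.06 in the thymi. The part of RNA quality in these shifts was not tested.

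At unadjusted p, 54 of the 547 chromosome 15 genes tested were higher in the high tumors (9.87%), against 2.15% of all genes. With the 3′ over 5′ ratio as a covariate these were 79 genes (14.4%), against 2.89% of all genes. With all 10 tumors and no sex term these were 21 genes (3.84%), against 1.58% of all genes, while 1.95% of all genes were lower in that fit. Myc, the oncogene on chromosome 15, was 10.07 in HT_07 and 11.36 to 11.68 in the other high tumors, and 11.01 to 12.14 in the low tumors (0.10, limma adjusted p = 0.992; -0.10 over all 10 tumors), so it did not separate the groups. Samm50, a mitochondrial outer membrane protein, was 11.93 to 12.46 in the high and 10.92 to 12.17 in the low tumors (0.91, limma adjusted p = 0.797). Lgals1, the sugar-binding protein galectin-1, was 13.01 to 14.29 in the high tumors and 8.60 to 14.64 in the low tumors (2.93, limma adjusted p = 0.808; 2.14 over all 10 tumors). Both were chosen after their values were seen.

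**Figure D5:**
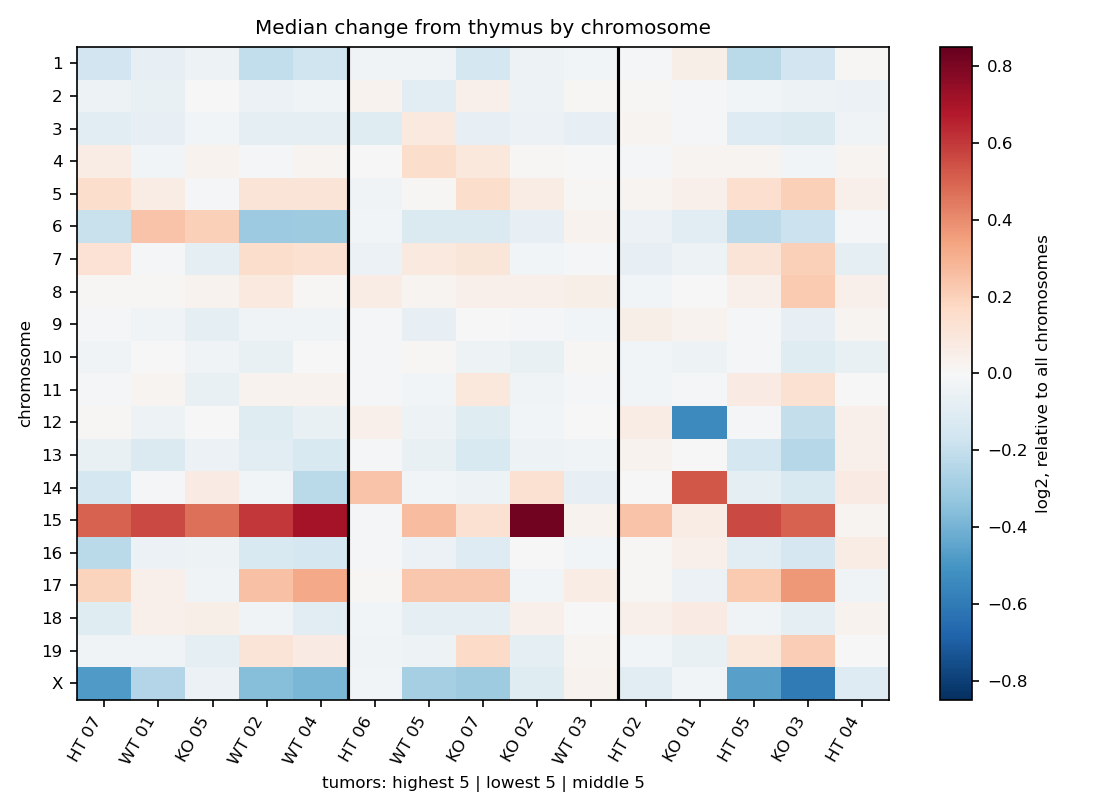
Median change from the thymus mean by chromosome (rows) and tumor (columns: high, low, middle), as log2 relative to all chromosomes, with red higher. The row of chromosome 15 is 0.47 to 0.71 in the high tumors and -0.01 to 0.82 in the low tumors.

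Chromosome 6 carries Cd4, at 124864693 to 124888247, and Cd8a, at 71373427 to 71379171, besides both Tmem176 genes. Of its 720 genes tested, 11 were among the 47 higher without overlap (1.53% of the chromosome's genes, against 0.344% of all). Another 5 were among the 44 lower without overlap, which were 0.323% of all genes. At unadjusted p under 0.05, 23 of its genes were higher (3.19%, against 2.15% of all) and 24 lower (3.33%, against 2.29% of all). Its shift was 0.24 in WT_01 and 0.20 in KO_05 but -0.19 in HT_07, -0.31 in WT_02 and -0.30 in WT_04 of the high tumors, and -0.12 to 0.03 in the low tumors. The mean difference was -0.01 (exact permutation p = 0.937).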

How the data were processed

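RNA was measured in 19 tumors and 12 thymi. The deposited values were linear normalized intensities made with GCRMA (version not given in the sources used here), per the submitters' processing notes, and every array had a median of 20.0. Depth does not apply to arrays; their number limits the precision.

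Gene names came from the platform's probe annotation: 34957 probe sets had 1 gene, 932 several and 9211 none. Positions and promoters came from RefSeq, GRCm38.p6. Values were turned to log2(value + 1), with the probe set of highest mean for each gene. Genes above the 25th percentile (3.646) were kept, 13645 of 18194, and Cd4 and Cd8a, which chose the groups, were not tested. Tests were limma 3.58.1 in R 4.3.3 (lmFit, eBayes, Benjamini-Hochberg over 13643 genes, adjusted p under 0.05) with sex as a covariate, and 2-sided exact permutation tests for single values. The fit was tested on simulated data. Alternatives changed covariates, pseudocount, filter, probe set rule, scaling, grouping and the tumors kept.

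Named were Cd8b1, Stk38, Lyl1, Il2ra, Rag1, genes past the threshold (else the 5 of smallest p per direction) and up to 4 members of each list; others are said to be chosen later. The tumors, members and lists were chosen with earlier results of these data known.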

Additional observations from a re-analysis of the deposited data

Results flagged for a closer look

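In groups of 5, a tumor was singled out when its gap to the nearest other was more than 0.71 of the group's range. This held in 14 of 170 groups. Chance gives about 1 in 20 for independent groups, but these share tumors and include genes chosen after their values were seen. No excess can therefore be read from the count. Values are log2(intensity + 1). In the high tumors, Bbc3 was 8.21 in HT_07, against 6.37 to 6.68 in the others. Cldn5 was 3.39 in WT_01, against 3.52 to 3.54, a dim and very narrow range. Vopp1 was 6.94 in KO_05, against 4.61 to 4.73. Susd4 was 8.43 in WT_01, against 4.17 to 4.36. Myc was 10.07 in HT_07, against 11.36 to 11.68.

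In the low tumors, KO_02 stood apart most often, though Susd4, Myc and Dst were chosen after their values were seen. KO_02 had 13.50 for Notch1 against 14.03 to 14.25, 4.48 for Susd4 against 10.39 to 11.10, 12.14 for Myc against 11.01 to 11.30, and 6.23 for Dst against 9.65 to 10.63. WT_03 had 4.46 for Il7r against 7.48 to 8.61, and 6.16 for Krt8 against 4.08 to 4.5. HT_06 had 8.14 for Il10 against 3.45 to 4.44, and 4.78 for Yap1 against 3.59 to 3.86. The 3′ to 5′ ratio was 3.17 in KO_07, against 0.19 to 0.98.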

How the results depend on the processing

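Tmem176a was the 1 gene past the threshold in the main analysis. No gene passed, a count of 0, with genotype in the fit (495 at unadjusted p under 0.05), with the continuous score over 15 tumors (386), with the mean of all probe sets (603), and with the 5 highest and 5 lowest of all 19 tumors (396). Leaving out 1 tumor each gave 1 to 9 genes: 2 without WT_01 (adding Susd4), 2 without HT_06 (adding Gfra2), 3 without KO_05 (adding Laptm4b and Vopp1), and 9 without KO_07, of which 2 were higher and 7 lower. Tmem176a passed in 19 of 23 settings, at differences of -4.23 to -3.60. Over all 23 settings, with the continuous score given as a slope, the values were -4.23 to -1.88. The settings with female tumors only and without KO_02 repeat the main fit, because KO_02 alone fits the sex term, so they add no check. The chromosome 15 shift, an analysis added after seeing the data, was 0.33, and 0.47 in female tumors only, 0.12 over all genes tested, 0.19 among all 19 tumors and 0.32 with a pseudocount of 16; leaving out 1 tumor gave 0.26 to 0.47.

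Signs of genes that did not pass turned in some settings. Stk38 was -0.04 with genotype in the fit, -0.24 with the 3′ to 5′ ratio in the fit, and -0.25 to 0.62 when 1 tumor was left out. Lyl1 was 0.26 without the sex term, 0.43 among all 19 tumors, and -1.18 to 0.02 when 1 tumor was left out. Il2ra was 0.46 without the sex term, 0.03 with the ratio in the fit, 0.55 with 15 tumors in 3 groups, 0.52 for the continuous score, 0.25 among all 19 tumors, and -1.23 to 0.92 when 1 tumor was left out. Among all 19 tumors, Pdcd1 was 0.04, Bub1b -0.13, Cdc20 -0.16, Gins1 -0.18, Xaf1 0.04, Ifit3 0.34 and H2-D1 0.07. Yap1 was 0.02 for the continuous score and Gata1 -0.05 without the sex term. Myc was -0.10 without the sex term, -0.03 with 15 tumors in 3 groups, -0.11 for the continuous score, -0.28 among all 19 tumors, and -0.01 to 0.39 when 1 tumor was left out. The cause was not tested.

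No paired analysis was possible because the 2 groups were formed from measured values and the labels' numbers do not pair tumors. Limits are the 5 tumors a group, the 1 male tumor, which fits the sex term alone, and dim genes near the array median of 4.39.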
